A study of Mus musculus with 8 samples.

Results

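Hematopoietic clusters of Kitl-deficient Sl/Sl embryos were compared with those of wild type embryos at E11.5, using 4 of the 8 samples in the series. The comparison was set by the sample labels: 2 wild type (WT) and 2 Sl/Sl cluster samples, the remaining 4 samples being WT and Sl/Sl endothelium. Cluster cells were sorted from the dissected aorta-gonad-mesonephros region with its vitelline and umbilical arteries (AGM+VU) as Ter119- VE-Cadherin+ Kit+ cells, while endothelium was taken as VE-Cadherin+ cells negative for Ter119, Kit, CD41 and CD45. Sl/Sl embryos are homozygous for the Steel deletion, which takes in Kitl, in every cell of the embryo, so that a difference in clusters is not tied to the loss of Kitl in one cell type. Each sample held 100 cells from a pool of 1 to 4 embryos of one genotype.

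Kit is a receptor tyrosine kinase on hematopoietic stem and progenitor cells, germ cells and melanocytes, and Kitl, its ligand, is made by neighboring cells, among them endothelium. Binding of Kitl activates Kit and passes a signal on through Grb2, Sos and Ras to the MAPK cascade, through PI3-kinase to Akt, and through Stat5. In the midgestation aorta, hematopoietic clusters bud from hemogenic endothelium and hold cells that mature into hematopoietic stem cells, so that Kit+ VE-Cadherin+ cells range from endothelial to hematopoietic in character.

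Totals ran from 10752465 to 13428214 counts per cluster library. CPM below are counts relative to the library total after TMM scaling, which levels libraries by a trimmed mean of gene ratios. Each log2 fold change (log2 FC, Sl/Sl over WT) is given ± its standard error from edgeR's quasi-likelihood fit, with a Benjamini-Hochberg adjusted p. Kit and Ptprc (CD45) were present in all 4 cluster libraries, while Cdh5, the gene of the VE-Cadherin used in the sort, stood at 218 and 12 CPM in WT and 149 and 46.1 CPM in Sl/Sl. Over 20 endothelial markers, summed expression was 1726 and 567 CPM in WT clusters and 4238 and 1059 CPM in Sl/Sl clusters, against 9733 to 10510 CPM in the endothelium libraries. In bulk RNA, fewer cells of a type and less RNA per cell cannot be told apart. Hematopoietic markers (20 genes) summed to 3309 and 4315 CPM in WT and 2977 and 3101 CPM in Sl/Sl, and were thus lower in Sl/Sl without overlap. Germ cell markers (18 genes, Kit among them) were also lower without overlap, at 1478 and 2110 CPM against 996 and 1276 CPM, with Ifitm1 at 747 to 1831 CPM making up most of each sum. Markers of further cell types are shown in the plot of summed markers. Skeletal muscle markers (21 genes) summed to 28.7 and 93.4 CPM in WT and 383 and 1270 CPM in Sl/Sl, with Myh3, Myh8 and Tnnc2 at 0 in every cluster library but Sl/Sl replicate 2. Actc1 alone stood at 335 and 328 CPM in Sl/Sl, and thus made up most of the sum in Sl/Sl replicate 1. Mesenchymal markers (20 genes) were at 1032 and 1275 CPM in WT and at 414 and 5767 CPM in Sl/Sl. The germ cell genes Dppa3, Utf1, Tfap2c and Sox2 were detected in WT replicate 1 and no other cluster library, Dppa3 at 76.7 CPM, and Pou5f1 was at 0 in all 4 cluster libraries. Megakaryocyte markers (16 genes) were at 448 and 1481 CPM in WT and 702 and 2208 CPM in Sl/Sl, and thus higher in replicate 2 of each genotype. Macrophage markers (17 genes) ran from 954 to 1506 CPM and erythroid markers (14 genes, 5 of them at 0 throughout) from 127 to 350 CPM without separating the genotypes. Eif2s3y, a Y-linked gene, was at 44.4 CPM in WT replicate 1 and below 1 CPM in the other cluster libraries, so that the pools also differed in sex. The part of these cells in the differences below was not tested, except where values without a library are given.

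**Figure D1:**
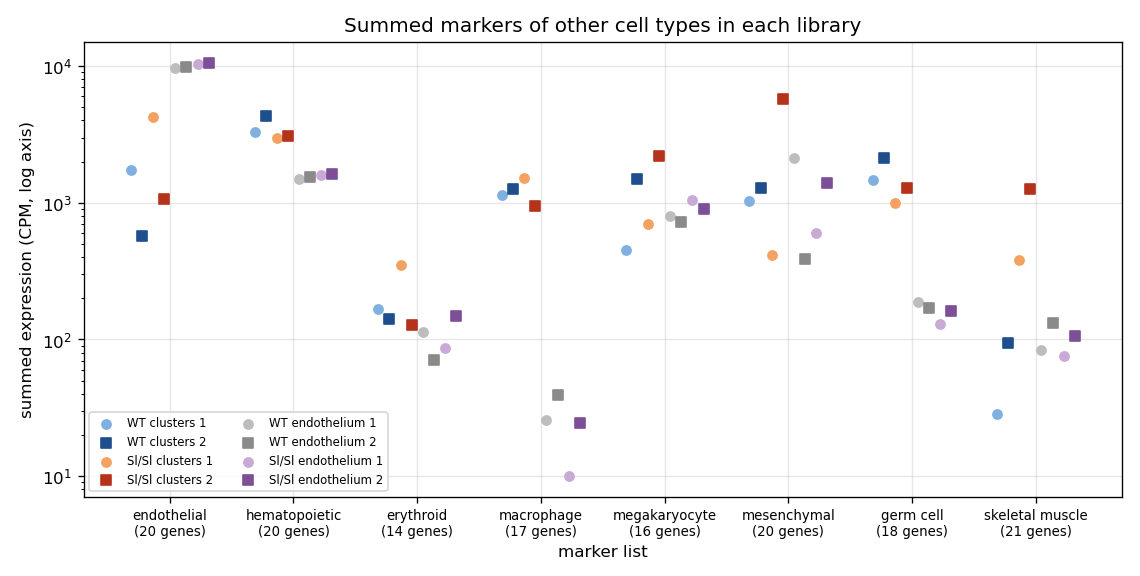
Summed expression (CPM, log axis) of the markers of 8 cell types in each of the 8 libraries, with one point per library and no error bar. Sl/Sl clusters replicate 2 stands highest for mesenchymal (5767 CPM) and skeletal muscle markers (1270 CPM), and Sl/Sl clusters replicate 1 is the highest cluster library for endothelial markers (4238 CPM).

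The Kitl locus was looked at first. Kitl lies on chromosome 10 (mm9, 99478458 to 99563046). WT clusters held 110 and 0 of its counts and Sl/Sl clusters 1 and 3, so that WT replicate 2 was not distinguished from Sl/Sl by this gene. The next genes in the direction of transcription of Kitl did distinguish it. Tmtc3 (99906536 to 99949981), which encodes a transmembrane protein of the endoplasmic reticulum with tetratricopeptide repeats, had 587 and 59 counts in WT clusters and 5 and 0 in Sl/Sl clusters. Cep290 (99950923 to 100036289), a gene of the ciliary transition zone, had 257 and 47 counts against 4 and 0. The adjoining 4930430F08Rik (100034908 to 100051893) had 277 and 79 counts against 4 and 1, although it overlaps the end of Cep290 and may share its reads. All 3 genes were thus present in both WT cluster libraries and at 5 counts or fewer in both Sl/Sl libraries. The endothelium showed the same arrangement, with 899 and 905 counts of Tmtc3 in WT and 5 and 4 in Sl/Sl. No gene beyond these within 2 Mb reached 50 counts over all libraries. On the side before Kitl, the 5 measured genes within 2 Mb were present in both genotypes. Dusp6, a MAPK phosphatase whose gene starts at -753 kb from Kitl, had 1676 and 1488 counts in WT clusters and 2445 and 878 in Sl/Sl clusters. Atp2b1, a calcium pump gene, had 1753 and 790 counts against 1518 and 1206. In clusters Tmtc3 had a log2 FC of -7.06 ± 1.53 (edgeR, adjusted p = 0.404), and DESeq2 on the 8 libraries gave an adjusted p of 7.25e-06. The log2 FC of Tmtc3 was -4.47 without WT replicate 1 and -11.32 without Sl/Sl replicate 1. For these neighbors, loss of the DNA and loss of Kitl cannot be told apart by the design.

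**Figure D2:**
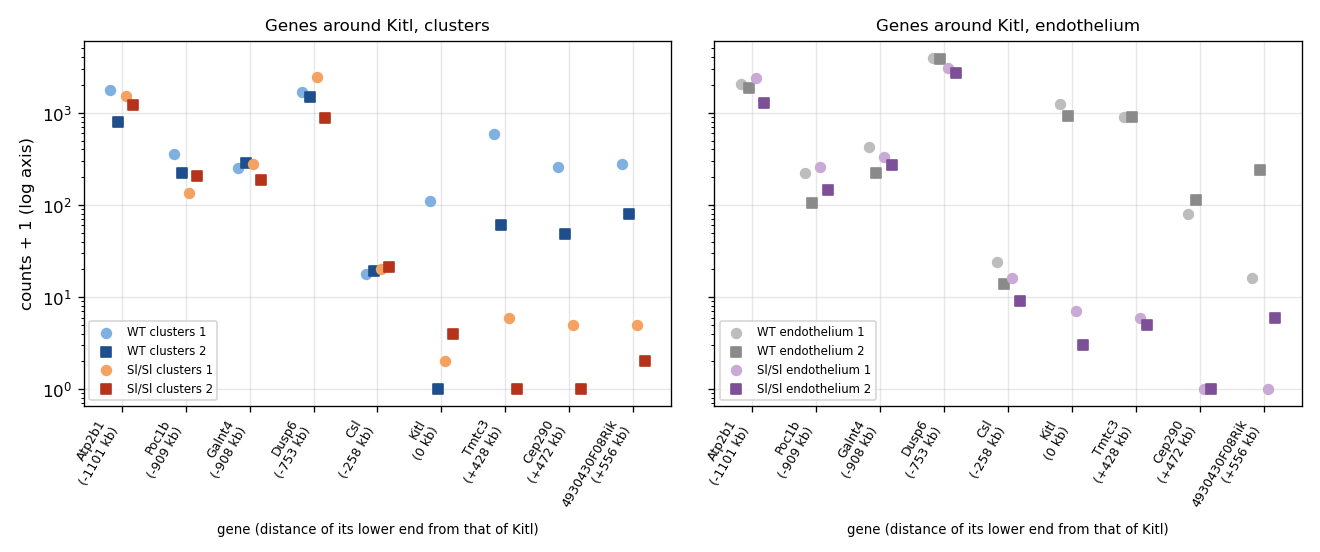
Counts plus 1 (log axis) of the 9 genes with at least 50 counts in all within 2 Mb of Kitl, in order along chromosome 10, for the 4 cluster libraries (left) and the 4 endothelium libraries (right). Genes before Kitl have counts in every library of both genotypes, whereas Tmtc3, Cep290 and 4930430F08Rik stand at 0 to 5 counts in each Sl/Sl library.

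Across the transcriptome, more genes were separated as higher than as lower in Sl/Sl clusters, while the number of genes past the threshold depended on the test. In edgeR's quasi-likelihood test 0 of 13908 genes (0%) had an adjusted p below 0.1, the smallest being 0.109. At an unadjusted p below 0.05, 474 genes (3.41%) were higher and 113 (0.812%) lower, in all fewer than the 695.4 that a threshold of 0.05 gives by itself. DESeq2 on the 8 libraries called 164 genes as higher (1.27% of 12865) and 11 as lower (0.0855%), and edgeR with the replicate number as a block called 8, each higher. As a measure per library, a gene was called separated when its lowest library in one genotype stood at least 2-fold (1 log2 CPM unit, prior count 2) above its highest library in the other, and not overlapping when the CPM ranges merely lay apart. By this measure 542 genes (3.9%) were separated as higher and 239 (1.72%) as lower, and 2287 (16.4%) and 2257 (16.2%) did not overlap. The separated genes were mostly low, since the 542 higher genes had a median of 2.98 CPM in clusters against 22.6 CPM over all genes, and 462 of them were under 5 CPM in WT. The smallest p that exact permutation of 4 libraries allows for one gene is 0.333.

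The 20 higher and 10 lower genes with the smallest p are given in the plot of single genes. Of the 20 higher genes, 19 were higher in each endothelium library than in either WT cluster library, and 16 were also above both Sl/Sl cluster libraries. Elane was the exception, and is described with the granule genes. Several belong to functions other than endothelial identity. Igf1, the insulin-like growth factor, was at 40.7 and 42.0 CPM in WT and 127 and 173 CPM in Sl/Sl clusters (log2 FC 1.86 ± 0.29, adjusted p = 0.172). Tuba1a, an alpha tubulin abundant in developing neurons, was at 66.8 and 117 CPM against 236 and 271 CPM (log2 FC 1.47 ± 0.28). Neither gene overlapped between the genotypes. Amotl1, an angiomotin-like protein of cell junctions that binds Yap, was at 16.1 and 7.01 CPM in WT and 110 and 72.7 CPM in Sl/Sl (log2 FC 2.99 ± 0.49). Ppap2a, a lipid phosphate phosphatase, was at 5.26 and 14.2 CPM against 53.1 and 64.6 CPM. Tmem88, an inhibitor of Wnt signaling at the membrane, was at 20.6 and 28.2 CPM against 135 and 65.3 CPM. Tmem255b and Slc2a13, a myo-inositol transporter, had no count in either WT cluster library. Against a floor of 3 counts per library, mean CPM in Sl/Sl clusters was at least 18.0-fold higher for Tmem255b and at least 41.8-fold higher for Slc2a13. Maged2, Eogt, Apold1, Id3, Ptprm and Nrep shared the smallest adjusted p and had log2 FC values of 1.74, 3.78, 5.87, 1.69, 3.73 and 1.81.

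The 10 lower genes were of another kind, as 6 of them stood lower in every endothelium library than in either WT cluster library. Kbtbd8, an adaptor of the Cul3 ubiquitin ligase, was at 24.8 and 13.5 CPM in WT and had no count in Sl/Sl. Against the floor of 3 counts per library in Sl/Sl, its mean CPM in WT was at least 84.0-fold higher. Cd69, a lectin-like receptor of activated leukocytes, was at 128 and 601 CPM in WT and 59.6 and 102 CPM in Sl/Sl (log2 FC -2.17 ± 0.63, adjusted p = 0.832). WT replicate 2 carried much of the difference in Cd69, for without it the log2 FC was -0.66. Pabpc1, the poly(A)-binding protein of cytoplasmic mRNA, was at 1046 and 1095 CPM in WT and 677 and 743 CPM in Sl/Sl. Its log2 FC of -0.59 ± 0.18 (adjusted p = 0.917) was small, and leaving out any one cluster library gave -0.66 to -0.53. Atp13a3, a P-type ATPase of the polyamine transporter group, was at 119 and 110 CPM against 43.7 and 60.8 CPM. Klk8, a serine protease, was at 211 and 191 CPM against 113 and 82.1 CPM. Dppa5a, a pluripotency and germ cell gene, was at 275 CPM in WT replicate 1 and had 3 counts or fewer in each of the other cluster libraries, and its place among the 10 thus rested on that library.

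**Figure D3:**
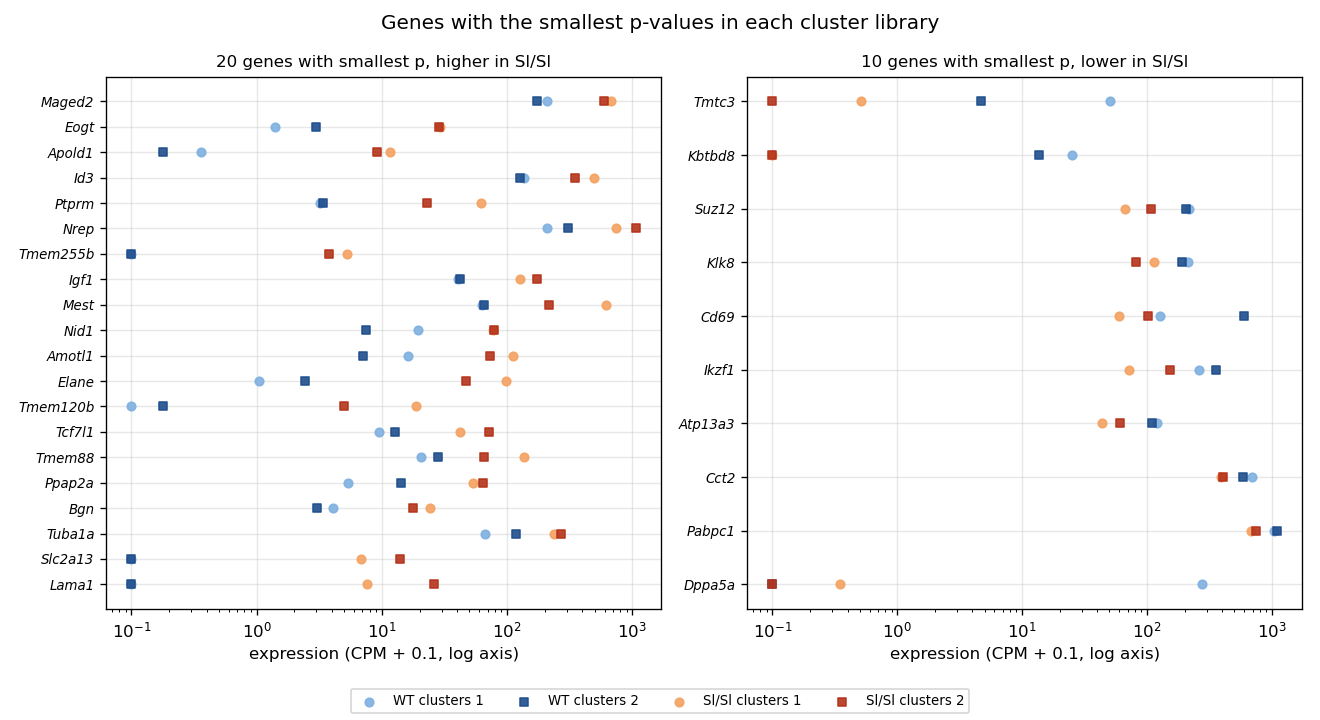
Expression (CPM plus 0.1, log axis) in the 4 cluster libraries, one point per library and no error bar, of the 20 genes with the smallest p among those higher in Sl/Sl (left) and the 10 among those lower (right). The genotypes did not overlap in any of these genes except Dppa5a, which has no count in WT replicate 2 and Sl/Sl replicate 2 and 3 counts in Sl/Sl replicate 1.

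Genes were then grouped into 26 lists by function. The difference in log2 CPM was taken for each of the 4 pairings of a Sl/Sl with a WT library, and its median over a list's genes is given per pairing as an effect size that rests on single libraries. Over all tested genes the 4 medians lay between 0 and 0.014, and the fit gave a median log2 FC of 0.030. In 8 lists all 4 medians were above 0 and in 6 lists all 4 were below 0. Adjusted over all genes, 0 members of any list passed in edgeR's test, so counts below are of genes that did not overlap or were separated.

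**Figure D4:**
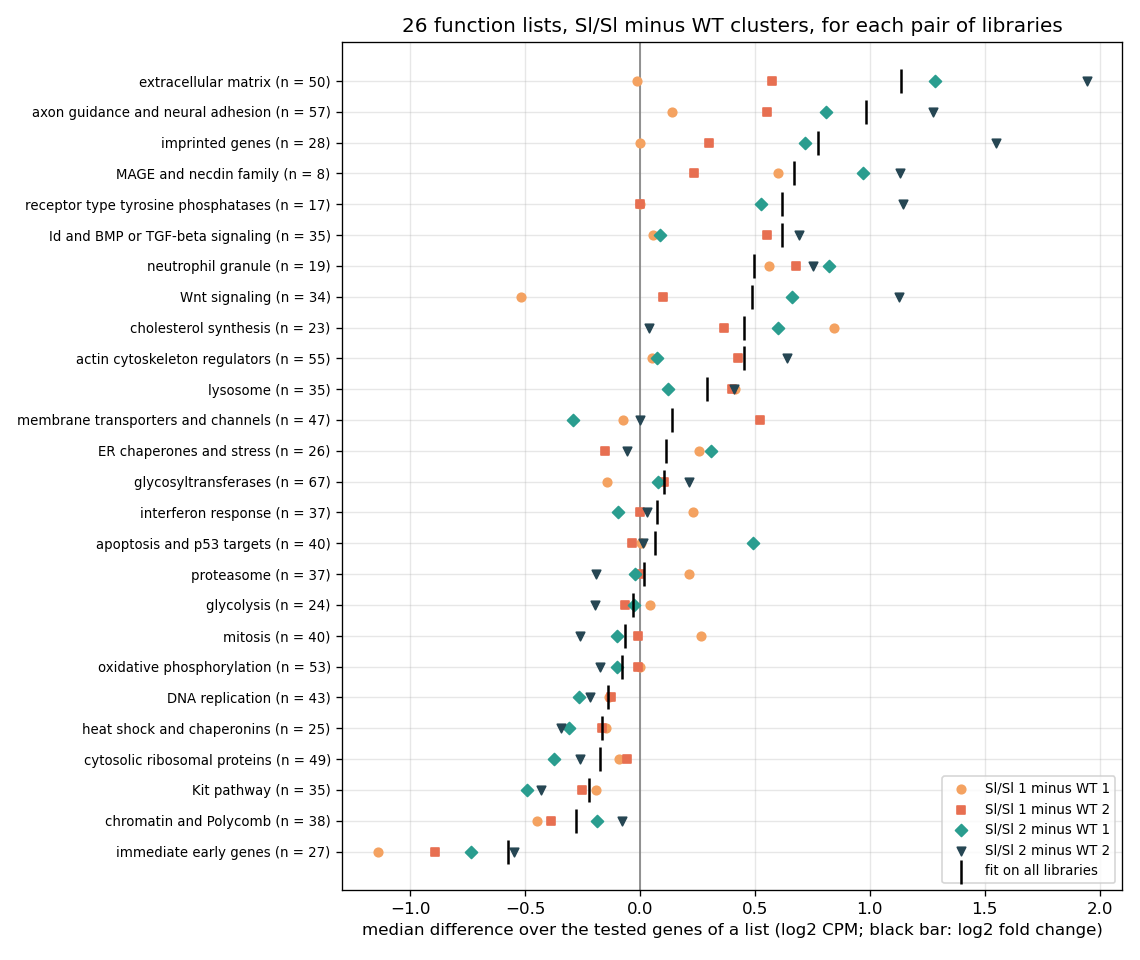
Median difference between Sl/Sl and WT clusters (log2 CPM) over the tested genes of each of 26 function lists, with one colored point for each pairing of a Sl/Sl library with a WT library and a black bar for the median log2 fold change of the fit. Immediate early genes lie below 0 in every pairing (-1.14 to -0.55) and neutrophil granule genes above 0 (0.56 to 0.82), while extracellular matrix genes spread from -0.013 to 1.94.

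Immediate early genes, transcription factors and feedback regulators that are switched on within minutes of a signal such as MAPK activation, were the list lowest in Sl/Sl clusters. Their median log2 FC was -0.58 over 27 tested genes, 22 of them negative. The 4 pairings gave medians of -1.14, -0.89, -0.74 and -0.55. Of the 27, 13 were lower without overlap (48.1%, against 16.2% over all genes) and 1 was higher (3.7%, against 16.4%). Separated as lower were 3 (11.1%, against 1.72% over all genes), and 2 with RLE size factors or with a prior count of 5. Nr4a1, an orphan nuclear receptor, was at 44.8 and 77.9 CPM in WT and 20.2 and 19.8 CPM in Sl/Sl (log2 FC -1.62 ± 0.60, adjusted p = 1). Ier5 was at 51 and 49.4 CPM against 15.4 and 22.1 CPM (log2 FC -1.42 ± 0.64). Dusp2, a nuclear MAPK phosphatase, was at 65.1 and 80.8 CPM against 27.4 and 32.5 CPM (log2 FC -1.28 ± 0.66). In each of these 3 genes both Sl/Sl libraries lay under both WT libraries, with Dusp2 close to the 2-fold limit. Fos, a subunit of AP-1, was at 162 and 230 CPM in WT and 48.4 and 140 CPM in Sl/Sl (log2 FC -1.06 ± 0.50). Junb, Zfp36, Egr1 and Egr3 were also lower without overlap, and Btg2 was the one higher gene, at 52.4 and 78.0 CPM against 89.8 and 82.3 CPM. Dusp1, Myc, Ier2 and Klf4 overlapped between the genotypes. In the endothelium the median of the list stood the other way, at 5.52 and 5.01 log2 CPM in WT and 6.16 and 5.55 in Sl/Sl. Leaving out any one cluster library gave a median log2 FC in clusters of -1.12 (without Sl/Sl replicate 2) to -0.55.

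The upstream sequence of Nr4a1 is shown since this gene had the smallest p of the list. The 250 bases before its start (RefSeq, GRCm38.p6, chr15:101266596-101266845, plus strand, a later build than the mm9 of the counts) hold TGCGTCA, a site of the kind bound by AP-1 and CREB factors, 4 times on the plus strand and 0 times as its reverse complement TGACGCA. The sites are in capitals.
Nr4a1: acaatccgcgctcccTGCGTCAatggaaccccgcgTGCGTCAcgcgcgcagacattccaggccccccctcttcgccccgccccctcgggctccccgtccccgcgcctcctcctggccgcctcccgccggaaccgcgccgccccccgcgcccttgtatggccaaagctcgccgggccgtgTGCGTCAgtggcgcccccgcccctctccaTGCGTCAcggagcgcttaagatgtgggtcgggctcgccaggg
At least 1 match on either strand was found in 1.75% of 32851 such windows, and 4 matches in 1 window, that of Nr4a1. The windows of Ier5 and Dusp2 hold 0 matches of these letters. The choice of these letters was not part of the planned comparison, so their frequency in this window is not a test. A match is a description of the sequence and does not show binding.

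**Figure D5:**
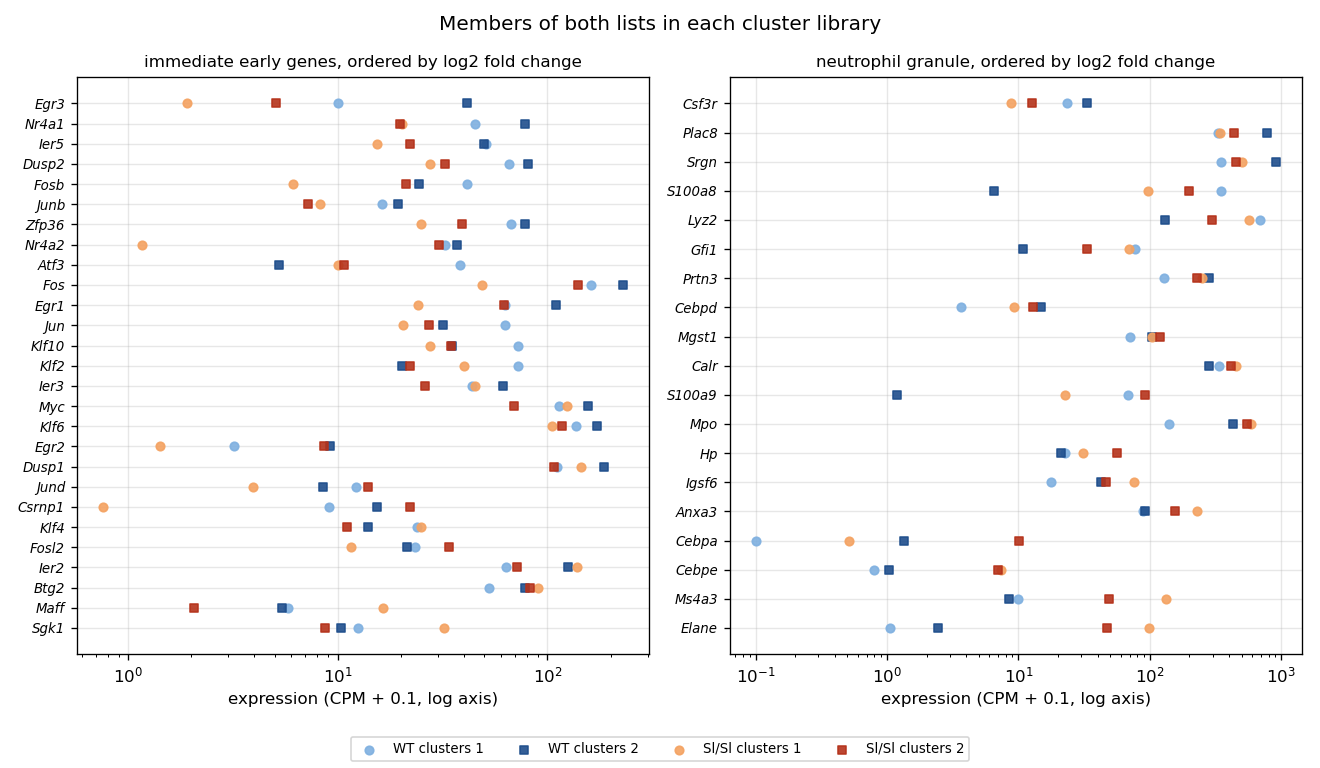
Expression (CPM plus 0.1, log axis) in the 4 cluster libraries of the 27 tested immediate early genes (left) and the 19 tested genes of the neutrophil granule list (right), ordered by log2 fold change, one point per library. Nr4a1, Ier5 and Dusp2 lie apart with both Sl/Sl libraries lower, and Elane, Ms4a3 and Cebpe lie apart with both Sl/Sl libraries higher.

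Components and targets of the Kit pathway itself differed less. The median log2 FC was -0.22 over 35 tested genes, and the pairings gave -0.19, -0.25, -0.49 and -0.43. Without Sl/Sl replicate 1 the median was -0.47. Without overlap, 12 genes were lower (34.3%, against 16.2% over all genes) and 2 higher (5.71%, against 16.4%). Kit was at 379 and 252 CPM in WT and 241 and 225 CPM in Sl/Sl (log2 FC -0.44 ± 0.28), so that the ranges lay next to each other. Of the proximal adaptors, Grb2 was at 122 and 90.9 CPM against 48.8 and 72.2 CPM, Sos1 at 79.9 and 33.6 CPM against 28.2 and 31.7 CPM. Etv5, an ETS factor induced by MAPK signaling, was the member separated as lower, at 54.3 and 27.6 CPM in WT and at 10.1 CPM in both of the libraries of Sl/Sl (log2 FC -2.02 ± 0.82, adjusted p = 1). Of the inhibitors of the cascade, Spred1 was at 54.4 and 48.4 CPM against 21.9 and 28.2 CPM and Spry2 at 128 and 86.0 CPM against 52.5 and 79.0 CPM. Other feedback genes did not follow, as Dusp6 overlapped between genotypes (145 and 116 CPM in WT, 201 and 61.4 CPM in Sl/Sl). Foxo3, the member separated as higher, had no count in WT and 33 and 5 counts in Sl/Sl, too few to rest a level on.

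Granule genes of neutrophils and their precursors were higher in Sl/Sl clusters. The median log2 FC was 0.49 over 19 tested genes, 15 of them positive, and the pairings gave 0.56, 0.68, 0.82 and 0.75. It was 1.06 without WT replicate 1 and between 0.48 and 0.90 without any of the others. Without overlap, 8 tested genes were higher (16.4% over all genes) and 1 was lower, and 3 were separated as higher (3.9% over all genes). The list holds genes other than those of granules, such as Gfi1 and the endoplasmic reticulum gene Calr. Calr is among the 8. Elane, the neutrophil elastase, was at 0.95 and 2.34 CPM in WT and 98.7 and 47.3 CPM in Sl/Sl. Ms4a3, a marker of granulocyte-monocyte progenitors, was at 9.75 and 8.41 CPM in WT and 133 and 49.1 CPM in Sl/Sl (log2 FC 3.33 ± 0.77, adjusted p = 0.47, and 0.00159 in DESeq2). Cebpe, a transcription factor of granule formation, was at 0.69 and 0.93 CPM against 7.31 and 6.86 CPM. These 3 genes were under 2 CPM in every endothelium library. Mpo, myeloperoxidase, was at 140 and 431 CPM in WT and 591 and 548 CPM in Sl/Sl (log2 FC 1.00 ± 0.57). Prtn3, which lies next to Elane and is made at the same stage, overlapped, at 128 and 280 CPM against 251 and 230 CPM. The genes of late granules, Ltf, Ngp, Camp and Lcn2, stood below 1 CPM in all 4 libraries and were not tested. S100a8 and S100a9 split the WT libraries instead, S100a8 at 346 and 6.46 CPM in WT and 97.0 and 199 CPM in Sl/Sl. Csf3r, the receptor for the granulocyte growth factor, was the lower gene, at 23.2 and 33.0 CPM against 8.71 and 12.5 CPM.

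Upstream windows of the 2 granule genes with the largest numbers of counts among the separated ones are shown with GGAAGT, a core of sites bound by the ETS factor PU.1, in capitals, searched on both strands (reverse complement ACTTCC). Elane is given from GRCm38.p6 chr10:79886062-79886311, plus strand, and Ms4a3 from chr19:11640852-11641101, minus strand, each as RefSeq's 250 bases before the start.
Elane: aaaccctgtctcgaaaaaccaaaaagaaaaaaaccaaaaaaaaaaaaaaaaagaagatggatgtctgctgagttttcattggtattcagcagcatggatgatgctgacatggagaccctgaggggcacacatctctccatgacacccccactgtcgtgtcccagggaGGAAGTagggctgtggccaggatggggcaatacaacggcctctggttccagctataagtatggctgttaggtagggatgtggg
Ms4a3: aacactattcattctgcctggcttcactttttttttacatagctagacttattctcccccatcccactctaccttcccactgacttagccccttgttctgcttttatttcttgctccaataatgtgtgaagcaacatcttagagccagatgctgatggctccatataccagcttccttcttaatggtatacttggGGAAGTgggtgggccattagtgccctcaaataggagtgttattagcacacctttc
Each window holds 1 match, as does that of Mpo, and 19.7% of all windows hold at least 1.

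Chromatin and Polycomb genes were lower by a median of -0.28 over 38 tested genes, with pairings of -0.45, -0.39, -0.19 and -0.078 and values of -0.52 without Sl/Sl replicate 2 and -0.13 without Sl/Sl replicate 1, and 10 were lower (26.3%, against 16.2% over all genes) and 2 higher without overlap. Suz12, a core subunit of the Polycomb complex PRC2, was at 218 and 205 CPM in WT and 67.1 and 107 CPM in Sl/Sl (log2 FC -1.28 ± 0.35, adjusted p = 0.697, and 0.0817 in DESeq2). Dnmt3b, a de novo DNA methyltransferase, was at 238 and 259 CPM against 123 and 145 CPM (log2 FC -0.89 ± 0.30). Satb1, a chromatin organizer of lymphoid cells, was at 87.0 and 108 CPM against 21.1 and 45.7 CPM. Suz12 in the endothelium stood between 67.3 and 101 CPM, about the level of the Sl/Sl clusters.

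Genes of protein synthesis and folding showed small shifts shared by many members. Of 49 tested cytosolic ribosomal protein genes, 46 had a negative log2 FC, 22 were lower without overlap (16.2% over all genes) and 0 were higher. The median was -0.18, the pairings gave -0.091, -0.058, -0.37 and -0.26, and 0 were separated. Without Sl/Sl replicate 1 it was -0.32 and without Sl/Sl replicate 2 -0.091. Rplp1, a stalk protein of the large subunit, was at 454 and 392 CPM in WT and 338 and 328 CPM in Sl/Sl. Ribosomal protein genes have many processed pseudogenes, and how reads with several matches were counted is not given in the sources used here. Heat shock and chaperonin genes had a median of -0.17 over 25 genes, 10 of them lower (40%, against 16.2% over all genes) and 1 higher without overlap, and of -0.048 without Sl/Sl replicate 2. Cct2, a subunit of the cytosolic chaperonin, was at 694 and 588 CPM against 394 and 406 CPM (log2 FC -0.68 ± 0.21, adjusted p = 0.917). Hsp90aa1, the inducible cytosolic Hsp90, was at 812 and 944 CPM against 565 and 656 CPM. Hspa1a, an inducible Hsp70, was separated as lower, at 38.2 and 22.2 CPM against 2.63 and 10.9 CPM. Proteasome genes had a median of 0.019, and genes of the endoplasmic reticulum stood at 0.11, with Calr at 334 and 282 CPM against 452 and 417 CPM.

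Cell cycle and energy genes had medians near 0 and, without overlap, more members lower than higher. Of 43 DNA replication genes, 28 were negative (median -0.14), and 0 were separated. Without overlap, 15 of them were lower (34.9%, against 16.2% over all genes) and 3 higher. Mcm2, a subunit of the replicative helicase, was at 228 and 181 CPM in WT and 102 and 132 CPM in Sl/Sl, and Gins1, which works with the same helicase, at 166 and 166 CPM against 116 and 105 CPM. The median over 40 mitosis genes was -0.065 and their pairings fell on both sides of 0, from -0.26 to 0.26. Oxidative phosphorylation (53 genes) stood at -0.080, with 16 genes lower (30.2%, against 16.2% over all genes) and 3 higher without overlap. Its median was -0.16 without Sl/Sl replicate 1 and -0.0041 without Sl/Sl replicate 2. Glycolysis (24 genes) stood at -0.030, and at 0.23 without WT replicate 2. Within that list, Pdk1, which holds pyruvate back from the mitochondrion, was at 56.1 and 93.8 CPM against 29.1 and 41.1 CPM, and the lactate carrier Slc16a1 at 101 and 56.1 CPM against 23.1 and 36.7 CPM.

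Genes of apoptosis and p53 targets had a median of 0.067 over 40 genes. The median was -0.18 without Sl/Sl replicate 2 and 0.23 without WT replicate 2. Since the list holds genes that promote cell death as well as genes that oppose it, its median has no direction of survival. Without overlap, 7 were higher and 7 lower (17.5% each way), near the 16.4% and 16.2% over all genes. Separated as higher were 2, Gadd45g and Bbc3 (5%, against 3.9% over all genes), and 0 were separated as lower. Gadd45g, a stress and differentiation response gene, was at 35.4 and 28.2 CPM in WT and 113 and 91.3 CPM in Sl/Sl (log2 FC 1.68 ± 0.39, adjusted p = 0.47). In the endothelium Gadd45g stood between 88.4 and 162 CPM, about the level of Sl/Sl clusters. Mcl1, an antiapoptotic Bcl2 family gene, was at 222 and 142 CPM against 90.8 and 107 CPM (log2 FC -0.88 ± 0.32, adjusted p = 1, and -0.52 without WT replicate 1).

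Extracellular matrix genes had the highest median of the 26 lists, 1.14 over 50 tested genes, but the value depended on one library. The pairings gave -0.013 and 0.57 for Sl/Sl replicate 1 and 1.28 and 1.94 for Sl/Sl replicate 2, and the fit without Sl/Sl replicate 2 gave -0.052. Mesenchymal markers in that library summed to 5767 CPM, against 414 to 1275 CPM in the other 3. Of the 50, 15 were higher (30%, against 16.4% over all genes) and 1 lower without overlap, and 4 were separated as higher (8%, against 3.9%). Nid1, which links basement membrane laminin and collagen, was at 19.5 and 7.40 CPM in WT and 76.8 and 79.0 CPM in Sl/Sl (log2 FC 2.54 ± 0.40, adjusted p = 0.172). Bgn, a small proteoglycan, was at 3.97 and 2.96 CPM against 24.2 and 17.5 CPM. Lama1 and Tnc had no count in WT and stood at 7.47 and 25.9 CPM, and at 4.93 and 33.5 CPM, in Sl/Sl. Against the floor of 3 counts per library, their mean CPM in Sl/Sl was at least 67.9-fold and at least 78.0-fold higher. Sl/Sl replicate 2 carried most of both means. Nid1, Bgn and Lama1 were present in all 4 endothelium libraries, while Tnc, a matrix protein of migrating mesenchyme, was below 0.1 CPM there.

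Guidance and neural adhesion genes (median 0.98, 57 genes) showed a like dependence, with pairings from 0.14 to 1.27 and a median of 0.18 without Sl/Sl replicate 2. Without overlap, 19 were higher (33.3%, against 16.4% over all genes) and 4 lower (7.02%, against 16.2%). Crmp1, a cytoskeletal mediator of semaphorin signals, was at 4.31 and 0 CPM in WT and 25.0 and 30.6 CPM in Sl/Sl (log2 FC 3.69 ± 1.20, and 11.34 without WT replicate 1, which held the counts of WT). Actin cytoskeleton regulators stood at 0.45 (55 genes), and at 0.20 without WT replicate 2 and 0.26 without Sl/Sl replicate 2, with 13 higher (23.6%, against 16.4% over all genes) and 5 lower (9.09%, against 16.2%) without overlap. Cnn2, a calponin that binds actin, was at 106 and 130 CPM in WT and 282 and 270 CPM in Sl/Sl (log2 FC 1.23 ± 0.26, adjusted p = 0.398, and 0.00648 in DESeq2), and Cnn3 at 358 and 424 CPM against 606 and 666 CPM. Acta2, the smooth muscle actin, was at 142 and 119 CPM against 368 and 745 CPM. Actc1, the cardiac and early skeletal actin, was at 5.26 and 12.6 CPM against 335 and 328 CPM, and was thus high in Sl/Sl replicate 1 too, where Acta1, the adult skeletal actin, was at 0.082 CPM.

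Signaling lists with medians above 0 were likewise led by genes that the endothelium expresses. The Wnt list had a median of 0.49 over 34 genes, but 4 were higher without overlap (11.8%, under the 16.4% over all genes) and 1 lower. Tcf7l1, a repressing Tcf factor, was at 9.32 and 12.5 CPM in WT and 42.3 and 71.3 CPM in Sl/Sl (log2 FC 2.38 ± 0.44, adjusted p = 0.366). The receptor Fzd4 had 2 and 1 counts in WT and 54 and 41 in Sl/Sl, a ratio of 29.2 (exact binomial 95% interval 9.70 to 144, counting error only). The endothelium held 99.8 to 169 CPM of Tcf7l1 and 21.2 to 30.7 CPM of Fzd4. Without Sl/Sl replicate 2 the median of the Wnt list was -0.49. For the Id, BMP and TGF-beta list (0.62, 35 genes), Bmp4 was at 11.7 and 4.67 CPM against 19.9 and 85.9 CPM, and the median of the list was 0.094 without Sl/Sl replicate 1 and 0.25 without Sl/Sl replicate 2. Among receptor tyrosine phosphatases (0.62, 17 genes), Ptprk was at 6.82 and 7.71 CPM against 18.3 and 31.6 CPM, while the median of that list was 0 without Sl/Sl replicate 2 and 1.57 without WT replicate 1.

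Imprinted genes stood at a median of 0.78 over 28 genes, 24 of them positive, with 8 higher (28.6%, against 16.4% over all genes) and 1 lower without overlap, and pairings from 0.0005 to 1.55. Without Sl/Sl replicate 2 their median was 0.034, and without WT replicate 1 it was 1.48. Mest, an imprinted gene of mesoderm, was at 63.1 and 65.3 CPM in WT and 620 and 216 CPM in Sl/Sl (log2 FC 2.70 ± 0.42, adjusted p = 0.172, and 1.75 without Sl/Sl replicate 1). Plagl1, a zinc finger factor that acts on other imprinted genes, was at 165 and 80.2 CPM against 237 and 235 CPM, and Sgce at 87.1 and 45.0 CPM against 128 CPM in both. Ube3a, which is imprinted in neurons, was the lower gene, at 118 and 96.8 CPM against 52.3 and 61.1 CPM. In the MAGE and necdin family (0.67, 8 genes), the median was 0.17 without Sl/Sl replicate 2, and Ndn was at 54.2 and 45.5 CPM in WT and 95.8 and 113 CPM in Sl/Sl.

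Lysosome genes (0.29, 35 genes) stood above 0 in every pairing (0.12 to 0.41), and at 0.46 without WT replicate 2. Without overlap, 11 were higher (31.4%, against 16.4% over all genes) and 4 lower (11.4%, against 16.2%). Ctsl, a cysteine protease, was at 122 and 146 CPM in WT and 310 and 218 CPM in Sl/Sl (log2 FC 0.98 ± 0.24, adjusted p = 0.52). Ctsh was at 28.6 and 13.6 CPM against 164 and 33.7 CPM, highest in the library with the most endothelial markers. Scarb2, a lysosomal membrane protein, was separated the other way, at 36.2 and 27.1 CPM against 10.4 and 12.7 CPM. In cholesterol synthesis (0.45, 23 genes, 7 higher without overlap or 30.4%, against 16.4% over all genes, and 1 lower), Fdps was at 103 and 118 CPM in WT and 186 and 157 CPM in Sl/Sl. The median of that list was 0.23 without Sl/Sl replicate 1 and also without WT replicate 1.

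Transporters and channels (47 genes) had a median of 0.14, which ran from -0.18 without WT replicate 2 to 0.44 without WT replicate 1. Of these, 3 were separated as higher (6.38%, against 3.9% over all genes) and 3 as lower (6.38%, against 1.72%). Slc7a5, which carries large neutral amino acids, was at 52.1 and 27.9 CPM in WT and 9.53 and 12.8 CPM in Sl/Sl (log2 FC -1.84 ± 0.76, adjusted p = 1). Abcg2, the efflux pump of side population cells, was at 126 and 141 CPM against 321 and 210 CPM (log2 FC 0.99 ± 0.26, and 0.65 without Sl/Sl replicate 1). Cav2, a caveolin, was at 12.1 and 6.31 CPM against 104 and 27.2 CPM, and the endothelium held 288 to 356 CPM. Glycosyltransferases (0.10, 67 genes) and interferon response genes (0.073, 37 genes) had medians near that of all genes. Has2, a hyaluronan synthase, was at 0.60 and 0.55 CPM against 4.84 and 12.9 CPM. Of the interferon response genes, 2 were separated as higher (5.41%, against 3.9% over all genes) and 1 as lower (2.7%, against 1.72%). Gbp3 was at 1.47 and 0.86 CPM against 6.32 and 11.8 CPM. Other members went the other way, as Ifit1 had 56 counts over the WT clusters and 0 in Sl/Sl, and Isg15 26 against 1.

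Whether the effect of genotype differed between clusters and endothelium was tested with an interaction term over all genes. It gave 0 genes at an adjusted p below 0.1 in edgeR's quasi-likelihood test (smallest 0.621) and 175 with DESeq2. At an unadjusted p below 0.05 edgeR gave 736 genes, near the 695.4 that a threshold of 0.05 gives by itself. Eogt, for example, had a log2 FC of 3.78 in clusters and stood at 108 to 130 CPM in all endothelium libraries of both genotypes. Its interaction had an adjusted p of 0.621 in edgeR's test.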

How the data were processed

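RNA of 100 sorted cells per sample was measured in 8 samples, 2 for each of 4 groups. Per the submitters' processing notes and the study's methods, the authors prepared SMARTSEQ2 libraries, aligned the reads to mm9 with STAR 2.4.2a and counted them on genes with featureCounts of Subread 1.4.5. What the authors deposited is 1 table of raw counts for 24015 genes, with no normalization. The annotation, strand setting and handling of reads with several matches are not given in the sources used here, so overlapping genes and near-identical copies may share reads, and without molecular identifiers counting intervals cover counting error only. A spreadsheet had changed 27 gene names to dates, and these genes were tested but not named.

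Samples were grouped by the labels. Samples came from pools of embryos over 2 sorting experiments, and which sample came from which is not given, so p-values measure the spread between these samples, which may in part be technical. Low genes were removed with filterByExpr, library totals were scaled by TMM, and the 13908 remaining genes were fitted in all 8 libraries with edgeR 4.0.16 (R 4.3.3). Genotypes were compared with the quasi-likelihood test with Benjamini-Hochberg adjustment over all genes, at the threshold of 0.1 used in the study. CPM used TMM-scaled totals, and log2 CPM a prior count of 2. Alternatives were DESeq2 1.42.0, limma 3.58.1 (voom), RLE size factors, a robust prior, the other setting of edgeR's legacy option, other filters, a threshold of 0.05, fits of the 4 cluster libraries, the replicate number as a block, prior counts of 0.5 and 5, and leaving out each cluster library. Leaving out each endothelium library for the interaction was added after seeing the data. The fits were tested on simulated counts for Sl/Sl against WT clusters, in 3 runs of 13331 genes. Of the genes given an absolute log2 FC of 2, 32.7% were recovered, and of those given 4, 67.3%. The changed genes were drawn only from genes above a floor of mean count, so these rates do not cover the lowest genes. Genes given no difference made up 14.8% of the calls.

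The comparison, the 26 function lists and the 9 marker lists were chosen with earlier results of these data known. Of 1121 listed symbols, 1117 were found in the table by name and 2 by an older name, and 2 were not found. Named genes were the 20 higher and 10 lower genes with the smallest p, the 2 members of each list with the smallest p and members separated at least 2-fold. Further members are named from their values, as are the genes around Kitl. Upstream sequences are from RefSeq (GRCm38.p6). Markers of 5 sex-linked genes were used to describe the pools.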

Additional observations from a re-analysis of the deposited data

How the results depend on the processing

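The count of 0 genes at an adjusted p below 0.1 depended on the setting. It was 6 with a robust prior, 7 with edgeR's other legacy setting, 253 (243 higher, 10 lower) without a filter on low counts, 5 with at least 10 counts in every cluster library, 175 (164 higher, 11 lower) with DESeq2 on 8 libraries and 107 (85 higher, 22 lower) with DESeq2 on the 4 cluster libraries. It stayed at 0 with RLE size factors, limma-voom, a threshold of 0.05 and edgeR on the 4 cluster libraries. Leaving out each cluster library gave 0 to 13, with 8 genes without WT replicate 1 and 13 without Sl/Sl replicate 2. The interaction gave 179 genes without the filter, 175 with DESeq2, and 0 to 4 with a library left out (4 without WT clusters replicate 1, 3 without Sl/Sl clusters replicate 2, 1 without Sl/Sl endothelium replicate 2), and 0 otherwise. The cause of these shifts was not tested.

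Samples of one number are not known to be pairs. With the replicate block edgeR called 8 genes in clusters, all higher in Sl/Sl, and 0 for the interaction. Deviations of same-numbered cluster samples correlated at 0.157, and each cluster library correlated best across genes with the same-numbered library of the other genotype (Spearman 0.901 and 0.912).

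The log2 fold change of Dppa5a, -10.08, turned to 3.62 without WT replicate 1 and ran from -13.64 to 3.62 over the libraries left out. Medians of lists lay from -0.47 to -0.20 (Kit pathway), -0.52 to -0.13 (chromatin and Polycomb), -0.32 to -0.091 (ribosomal proteins) and 0.48 to 1.06 (neutrophil granule) with each cluster library left out. Those of endothelial markers ran from -0.18 to 2.93 and of mesenchymal markers from -4.52 to 2.4. The biological coefficient of variation was 0.817 with 2 libraries a group.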
